A study of Mus musculus with 4 samples.

Results

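In Th2 cells cultured with SH-2251, a set of 125 genes had a signal at least 2-fold lower than in control cells, both when the cells were left unstimulated and after they were restimulated through the T cell receptor. With another background correction (normexp) 64 of them stayed past this threshold, and all 125 kept the direction. The members were selected on the measured values: of 18344 RefSeq genes on the arrays, 11451 had their brightest probe well above background on all 4 arrays, and 134 of these had a log2 difference of -1 or lower (SH-2251 minus control) in both states. The selection left out 8 genes by name (Gfi1, Il5, Hic1, Tgfb3, Tgm2, Pparg, Il1rl1 and Itga4) and the interferon-stimulated Ifit, Oas, Mx, Gbp and Irf families, of which Oas1a was past the threshold. Since the differences between treated and control cells chose the members, they are given below as a description.

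Th2 cells are the CD4 T cells of allergic inflammation, which make IL-4 and, when fully differentiated, IL-5 and IL-13. A resting effector Th2 cell keeps its cytokine genes poised, and engagement of the T cell receptor switches many of them on within hours. SH-2251, a small molecule related to thioamides, is known as a compound against the production of IL-5.

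Splenic CD4 T cells of female C57BL/6J mice were stimulated for 2 days with anti-TCR-β and anti-CD28 antibodies in IL-2 and IL-4, and kept in IL-2 and IL-4 for 3 more days. The control cultures received no SH-2251, and the treated cultures had it in both phases, at 1 µM and then 1 mM according to the labels, whereas the methods of the study name a lower dose. The methods also name naive CD4 T cells as the starting cells of Th2 cultures, whereas the labels name splenic CD4 T cells with no further sort, and which was used for the arrays is not settled here. Each culture was then either left resting or restimulated for 4 h with immobilised anti-TCR-β antibody. The labels give no age, and the methods give an age range in weeks for the mice of the study, here called young adults. Whether cells of several mice were pooled is not given in the sources used here. One array per condition was hybridised, so no difference could be checked in replicates or tested, and their number sets the precision. Values below are log2 signals of a gene's brightest probe, scaled so that 0 is the upper quartile (75th percentile) of its array, and levels of different genes are not compared. Where levels are given as a pair of values "before" and a pair "after restimulation", the control culture comes first and the SH-2251-treated culture second. The technical SD of a difference comes from the error estimate of the scanner software and leaves out any error between cultures. Its median over the members was 0.207 in resting and 0.206 in restimulated cells, and its highest value 0.383.

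The cells carried the CD4 T cell and Th2 markers in all conditions. All 7 CD4 T cell markers and all 6 Th2 markers were well above background on every array, and no CD4 T cell marker differed 2-fold between treated and control cells in either state. Of the Th2 markers, Il10 and Il13 were at least 2-fold lower with SH-2251 in resting cells and Il10 alone in restimulated cells, with differences of -1.32 and -0.57 for Il13, the type 2 cytokine IL-13. Il10, listed for Th2 cells, and Gzma, listed for cytotoxic cells, are members themselves. Of the 7 B cell markers on the arrays, 5 were well above background on all arrays. The summed level of a cell type is the log2 of the summed signals of all its markers on the arrays, in which the brightest marker weighs most. For the 7 B cell markers it was 2.23 in resting control, 2.43 in resting SH-2251-treated, 1.91 in restimulated control and 2.54 in restimulated SH-2251-treated cells. For macrophages, dendritic cells and neutrophils, 3 of 10 markers were above background on all arrays, the summed level lay between 1.33 and 1.62, and Lyz2, Itgam, Elane, S100a8, S100a9 and Siglech were above background on none, while Mpo was on 3 of 4 arrays. For mast cells, basophils and eosinophils 1 of 8 markers was above background on all arrays, and the summed level lay between -1.88 and -1.67. For stromal cells these values were 4 of 6 markers and 0.65 to 1.41. Of these markers of other cells, 1 B cell marker was at least doubled in restimulated and 1 stromal marker at least halved in resting SH-2251-treated cells. The part of other cells in the decreases was not tested. In RNA from whole cultures, fewer cells of a type and less RNA per cell cannot be told apart.

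The size of the decrease varied widely among the members. The median log2 difference was -1.54 in resting cells, which left 34.3% of the control signal, and -1.45 in restimulated cells, which left 36.7%. Over all 11451 genes the medians were -0.051 and -0.057. The members' differences ranged from -4.20 to -1.01 in resting and from -3.88 to -1.002 in restimulated cells, and 19 members fell at least 4-fold below control in each state. The decrease was the deeper one in resting cells for 75 members and in restimulated cells for 50. The share of all genes at least 2-fold lower was 2.17% in resting cells, 1.83% in restimulated cells and 1.17% in both. In 99 members both SH-2251 arrays lay below both control arrays, and the same held for 18.5% of all genes, but the selection used these values. In the other 26 the ranges of treated and control cells overlapped.

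The size of a decrease depended on the background correction in dim members. With normexp the members' medians were -1.13 in resting and -1.11 in restimulated cells, and in 50 members the difference was smaller by more than 1.5 times in at least 1 state. The median log2 level over the 4 arrays was -2.09 for these 50 and 1.22 for the others. The members named below that were not 2-fold lower in both states with normexp were Chst2, Il10, Ctla4, Il20ra, Fcgr3, Csf2rb, Lair1, P2rx7, Vpreb3, Gpr34, Ramp1, Ghrh, Cst6, Serpinc1, Eya2, Tle6, Phf11a, H2bc12, H2bc14, Alox8, Angptl4, Hilpda, Acot11, Slc2a3, Slc35d3, Aqp11, Camkk1, Tubb6, Dhx58, Rtp4, Paqr4, Sdc3, Bcl2l14 and Tmem229b.

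**Figure D1:**
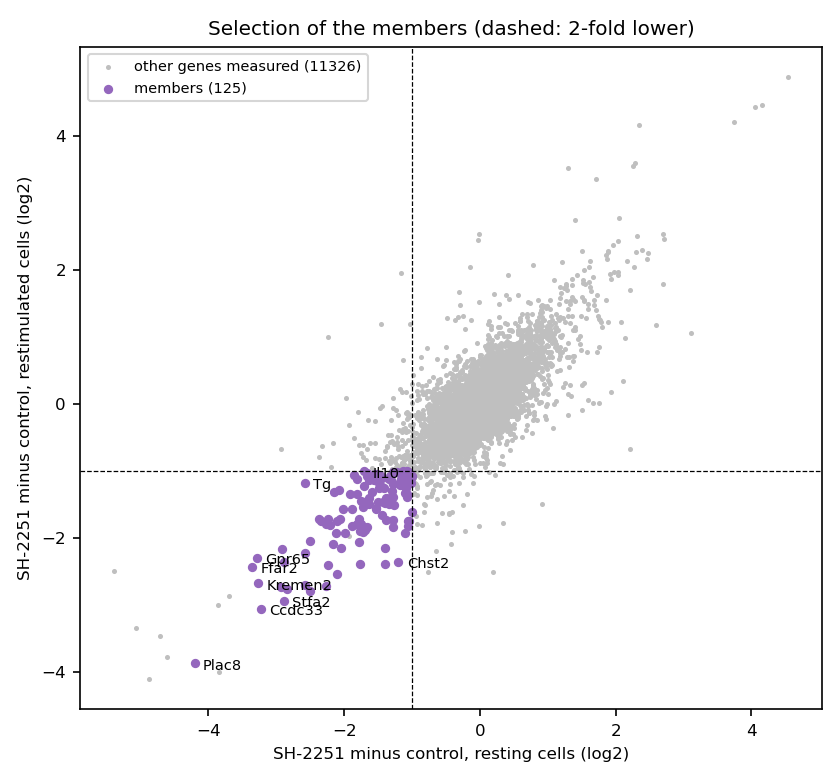
Log2 difference between SH-2251-treated and control cells for each of the 11451 genes measured, in resting cells (x axis) and in restimulated cells (y axis). Purple points are the 125 members, which lie at or below -1 (dashed lines) in both states, and Plac8 lies lowest of them. The grey points below both lines are the 9 genes left out, of which Hic1 and Pparg lie lower than Plac8 on the y axis.

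Just inside the threshold were Acot11, with differences of -1.08 and -1.002, Nsf, with -1.14 and -1.003, and Tmem229b, with -1.01 and -1.62, in resting and restimulated cells. Just outside were BC051665, with -0.99 and -1.13, Klk1b9, with -1.01 and -0.98, and Cyp11a1, with -0.98 and -1.35. No border in the values separates members from other genes, and 56 members were within 1 technical SD of the threshold in at least 1 state.

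Plac8, which encodes a small cysteine-rich protein of leukocytes and placenta, had the deepest decrease of the members. Its log2 signal was 5.16 in resting control cells, 0.96 in resting SH-2251-treated cells, 4.86 in restimulated control cells and 0.98 in restimulated SH-2251-treated cells. Both control cultures had a bright signal and both treated cultures had a much lower one, with 5.43% of the control signal in resting and 6.81% in restimulated cells left. Ccdc33, a coiled-coil gene, followed, with -0.49 and -3.72 before and -1.18 and -4.24 after restimulation. It was dim in treated cells, and with normexp its differences were -1.86 and -1.51, which placed it at rank 21 among the members. Kremen2, a receptor for the Wnt antagonists of the Dickkopf family, had 2.38 in resting control cells, -0.89 in resting SH-2251-treated cells, 1.33 in restimulated control cells and -1.35 in restimulated SH-2251-treated cells. In each of these 3 genes the treated cells lay below the control cells whatever the state, with differences of -3.23 in resting and -3.06 in restimulated cells for Ccdc33 and -3.27 in resting and -2.68 in restimulated cells for Kremen2. With normexp Plac8 stayed first, followed by Kremen2 and Dgat1.

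**Figure D2:**
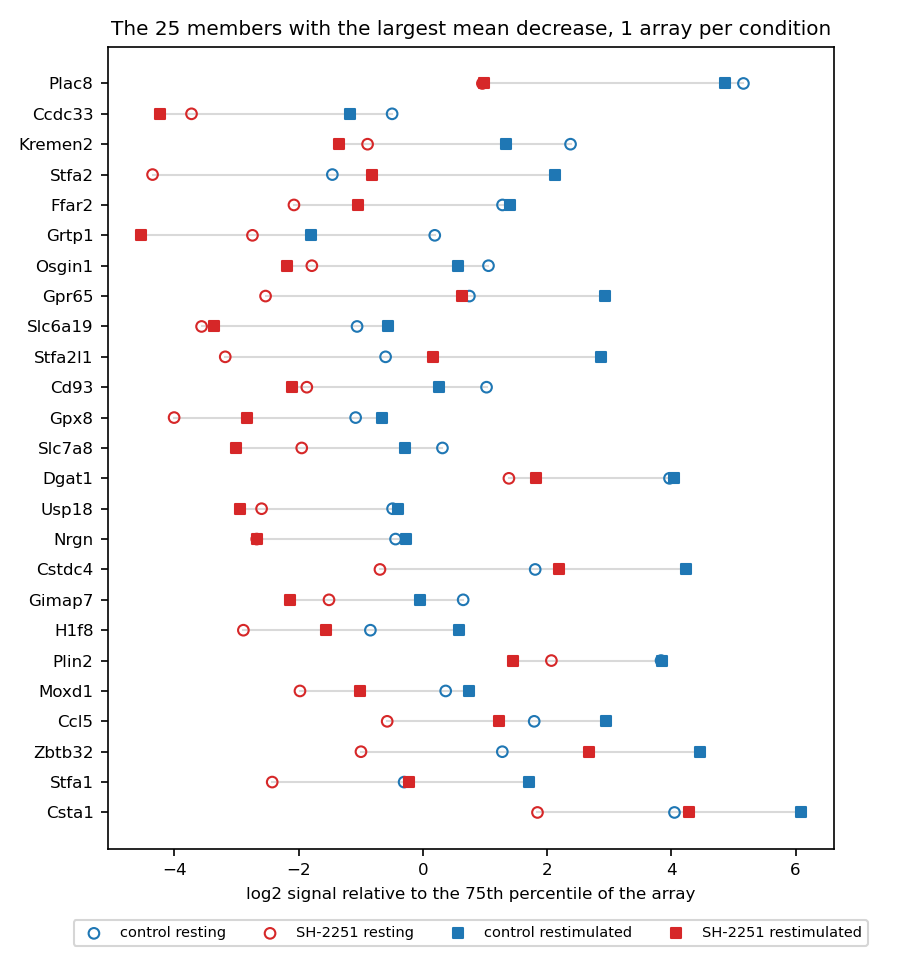
Log2 signal (x axis, 0 is the 75th percentile of the array) of the 25 members with the largest mean decrease (y axis), with 1 array per condition. Blue marks control and red SH-2251-treated cells, open circles resting and filled squares restimulated cells, and for Plac8 the red marks lie near 1 and the blue marks near 5.

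Promoter windows from RefSeq (build GRCm38.p6, 250 bases before to 50 bases after a start of transcription) were found for 94 of the 125 members. The 250 bases before a start are shown for Plac8, Ffar2, Osgin1 and Gpr65, which are among the 8 most lowered members, and for Plin2, described below, because they hold strings that were searched for, which are in capitals. A match is a description of these letters and not of a binding site. In Plac8 (chr5:100563097-100563346, minus strand) the capitals are the STAT6 string, a palindrome of 3 bases on each side of 4 free bases, which begins 153 bases before the second of its annotated starts. In Ffar2 (chr7:30823776-30824025, minus strand) they are AGGTCA, a site of nuclear receptors, read on the opposite strand 175 bases before the first of its 4 annotated starts, and the AP-1 string TGANTCA, 52 bases before it. In Osgin1 (chr8:119436897-119437146, plus strand) they are the AP-1 string at 97 bases and, on the opposite strand, AATCAC, which holds the core bound by Gfi1, at 79 bases before the start. In Gpr65 (chr12:98268385-98268634, plus strand) AATCAC begins 140 bases before the start, and in Plin2 (chr4:86670060-86670309, minus strand) AGGTCA lies on the opposite strand at 218 bases.
Plac8: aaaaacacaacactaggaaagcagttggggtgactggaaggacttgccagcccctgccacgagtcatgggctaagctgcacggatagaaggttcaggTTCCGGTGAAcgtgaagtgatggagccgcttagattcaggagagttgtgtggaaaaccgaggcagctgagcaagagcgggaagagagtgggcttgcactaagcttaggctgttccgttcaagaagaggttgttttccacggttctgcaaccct
Ffar2: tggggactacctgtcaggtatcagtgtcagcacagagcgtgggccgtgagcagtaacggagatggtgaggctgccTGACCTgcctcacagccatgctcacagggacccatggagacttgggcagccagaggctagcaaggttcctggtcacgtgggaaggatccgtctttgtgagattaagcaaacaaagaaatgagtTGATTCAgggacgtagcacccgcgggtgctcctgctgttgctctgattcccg
Osgin1: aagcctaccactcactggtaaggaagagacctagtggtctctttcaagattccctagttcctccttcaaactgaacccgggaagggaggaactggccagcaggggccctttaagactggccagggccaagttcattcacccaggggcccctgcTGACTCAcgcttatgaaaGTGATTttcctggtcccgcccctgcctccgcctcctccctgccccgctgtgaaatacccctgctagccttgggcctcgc
Gpr65: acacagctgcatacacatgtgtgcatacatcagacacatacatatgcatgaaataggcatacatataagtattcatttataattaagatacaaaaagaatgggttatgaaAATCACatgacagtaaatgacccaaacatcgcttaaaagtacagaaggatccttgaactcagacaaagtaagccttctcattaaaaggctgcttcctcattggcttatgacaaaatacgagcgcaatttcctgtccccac
Plin2: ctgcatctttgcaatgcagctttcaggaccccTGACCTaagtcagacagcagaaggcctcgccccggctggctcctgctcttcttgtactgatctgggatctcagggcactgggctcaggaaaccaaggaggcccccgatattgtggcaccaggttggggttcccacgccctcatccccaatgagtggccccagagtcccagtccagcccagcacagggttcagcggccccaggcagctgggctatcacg

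Over the 116 windows of the 94 members, AGGTCA was present in 24.1%, compared with 12.7% of 11696 windows of genes measured and 16.3% of all 32851 windows. The AP-1 string was in 12.1% of member windows, 5.0% of windows of genes measured and 7.81% of all. The corresponding shares were 13.8%, 8.41% and 10.4% for AATCAC, 10.3%, 6.81% and 11.2% for AGATAA, the string of GATA factors, 6.03%, 5.38% and 6.95% for the STAT6 string, and 6.90%, 7.07% and 8.30% for the STAT string with 3 free bases. The CRE string TGACGTCA was in none of the member windows, in 3.02% of those of genes measured and in 1.79% of all. Both strands were read, and some genes have several overlapping windows. Base composition differed too: the median GC content was 54.0% in member windows and 60.3% in windows of genes measured, and 30.2% of member windows had an observed over expected CpG ratio above 0.6, compared with 67.6%. This ratio was looked at after the sequences had been read, and the part of base composition in the shares of strings was not tested.

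Cystatins, stefins and serpins, families of protease inhibitors and their relatives, made a group of 11 members, with median differences of -2.11 in resting and -1.93 in restimulated cells, and 7 of them are stefin A type genes, which encode small inhibitors of cysteine cathepsins. These 7 (Csta1, Stfa2l1, Cstdc4, Csta2, Stfa1, Cstdc5 and Stfa2) belong to a run of 12 consecutive protein-coding genes on chromosome 16. Of the other 5 genes of the run, 4 had no probe here and the probe of Stfa3 failed the filter on dim signals. Stefin A genes of mice are known as closely related copies, and whether their probes share targets was not examined, so that the 7 values are uncertain as values of single genes.

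Stfa2 had a log2 signal of -1.46 in resting control cells, -4.35 in resting SH-2251-treated cells, 2.13 in restimulated control cells and -0.82 in restimulated SH-2251-treated cells. The signal was higher after restimulation and lower with SH-2251, and the restimulated treated cells lay close to the resting control cells. Stfa2l1 showed the same order, with -0.60 and -3.18 before and 2.87 and 0.16 after restimulation. Cstdc4 had 1.81 and -0.69 before and 4.24 and 2.19 after restimulation. Stfa1 had -0.30 and -2.42 before and 1.71 and -0.22 after restimulation. The treated cells after restimulation were again near the level of resting control cells in both genes. Csta1 had 4.05 and 1.84 before and 6.08 and 4.28 after restimulation, Csta2 had 5.38 and 3.28 before and 7.19 and 5.44 after restimulation and Cstdc5 had 2.37 and 0.30 before and 4.42 and 2.71 after restimulation. None of these 3 departed from the order seen in Stfa2. The differences of the 7 genes ranged from -2.89 to -2.07 before and from -2.95 to -1.72 after restimulation. All 7 were at least 2-fold higher after restimulation, both in control cells (by 3.49-fold to 11.99-fold) and in SH-2251-treated cells (by 4.49-fold to 11.5-fold). With normexp the resting differences were -1.35 for Stfa2, -1.63 for Stfa2l1 and -1.48 for Stfa1. Neutrophils are known to express stefins too. Of their markers, S100a8, S100a9 and Elane missed the limit for a signal well above background on all 4 arrays and Mpo passed it on 3, with log2 signals between -4.72 and -3.96, and the part of such cells in these values was not tested.

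**Figure D3:**
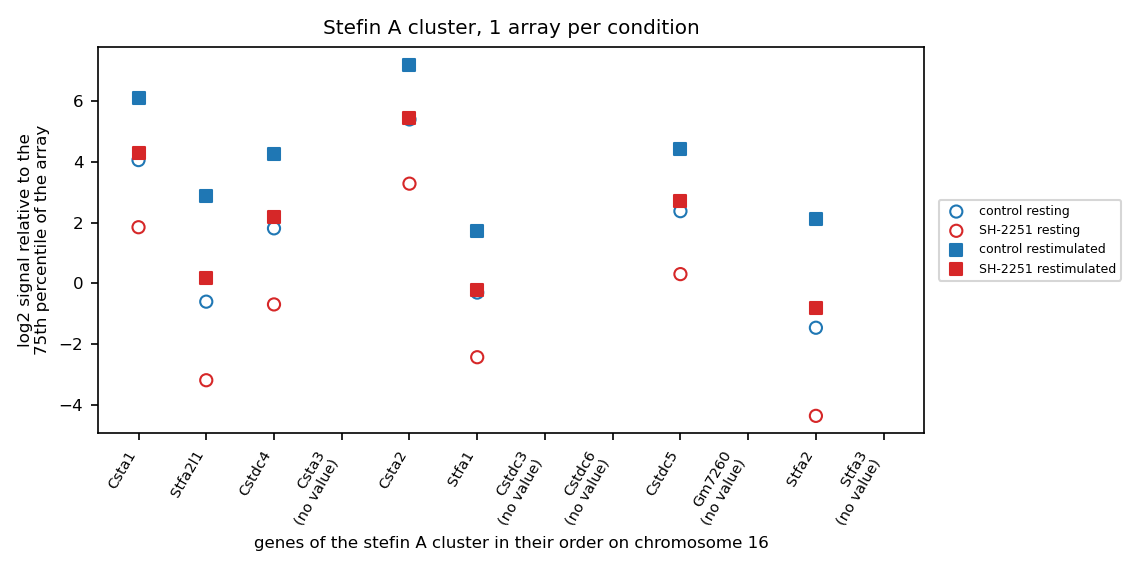
Log2 signal (y axis, 0 is the 75th percentile of the array) of the genes of the stefin A cluster in their order on chromosome 16 (x axis), with 1 array per condition. In each of the 7 genes with values, control cells (blue) lay above SH-2251-treated cells (red) of the same state, and treated cells after restimulation (red squares) lay near or above resting control cells (blue circles).

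The promoters of the 7 stefin genes were compared without gaps. Over the 21 pairs of windows the share of identical bases ranged from 26.9% to 79.7% with a median of 32.9%. An inserted or deleted base, or a start annotated at another place, lowers this share also in related sequences. The shares therefore do not measure how far the promoters differ. By this comparison the most alike pair was Stfa2l1 and Stfa2, the members with the largest responses to restimulation in control cells. A stretch of 190 bases near the start (chr16:36156617-36156806, plus strand, and chr16:36408364-36408553, minus strand) differed at 15 bases, shown in capitals.
Stfa2l1: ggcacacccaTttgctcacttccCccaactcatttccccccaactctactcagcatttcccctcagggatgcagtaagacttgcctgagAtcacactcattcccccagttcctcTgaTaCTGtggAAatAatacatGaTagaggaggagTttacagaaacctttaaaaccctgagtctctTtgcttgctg
Stfa2: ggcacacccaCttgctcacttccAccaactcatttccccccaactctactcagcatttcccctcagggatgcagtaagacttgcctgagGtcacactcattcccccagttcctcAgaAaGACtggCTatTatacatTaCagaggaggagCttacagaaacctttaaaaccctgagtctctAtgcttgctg

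The other members of the group included Cst6 and serpins. Cst6, a secreted cystatin, had 0.088 and -1.02 before and 0.46 and -1.47 after restimulation, with the larger gap after restimulation. Serpinf1, a secreted serpin without inhibitory activity, had 5.19 and 3.30 before and 4.71 and 2.89 after restimulation, and a second probe of it gave -2.04 and -2.15. Serpinc1, antithrombin, had differences of -1.07 in resting and -1.75 in restimulated cells, but its second probe gave -0.36 and -0.94.

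Receptors coupled to G proteins and peptide ligands made a group of 7. Ffar2, a receptor for short-chain fatty acids, had a log2 signal of 1.28 in resting control cells, -2.08 in resting SH-2251-treated cells, 1.40 in restimulated control cells and -1.04 in restimulated SH-2251-treated cells. The control signal was nearly the same in both states, while the treated signal was higher after restimulation. Gpr65, a receptor that senses protons, had 0.75 in resting control cells, -2.53 in resting SH-2251-treated cells, 2.93 in restimulated control cells and 0.63 in restimulated SH-2251-treated cells. It was higher after restimulation in both cultures, and the treated cells then reached about the level of resting control cells. Gpr83 had 1.48 and 0.041 before and 3.61 and 1.96 after restimulation, also with a higher signal after restimulation. Gpr34, a receptor for lysophosphatidylserine, had -1.60 and -2.999 before and -1.44 and -3.59 after restimulation. Ramp1, which pairs with a receptor to bind the neuropeptide CGRP, had -1.23 and -2.98 before and -2.01 and -3.45 after restimulation. The peptide genes were Nts (neurotensin), with differences of -1.59 in resting and -1.31 in restimulated cells, and Ghrh (growth hormone-releasing hormone), with -1.56 in resting and -1.11 in restimulated cells. Of 58 measured genes in a list of chemoattractant and other G protein-coupled receptors, 3 were members (Gpr34, Gpr65 and Gpr83) and 1 was at least doubled with SH-2251 in both states. The list's median differences were -0.17 in resting and -0.046 in restimulated cells. For scale, 1.17% of all 11451 genes passed the threshold of the selection when the genes left out were counted in. No such share is given here for genes doubled with SH-2251. Counts by list, in this paragraph and below, are therefore a description and do not set a list apart from the other genes.

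Cytokine and immune surface genes numbered 13. Il10, a cytokine that restrains inflammation, had a log2 signal of 4.12 in resting control cells, 2.42 in resting SH-2251-treated cells, 6.32 in restimulated control cells and 5.31 in restimulated SH-2251-treated cells. It was higher after restimulation in both cultures, and the treated cells kept 30.6% of the control signal before and 49.7% after it. Its difference in restimulated cells lay at the threshold, at -1.01, and was -0.98 with scanner intensities, -0.91 with quantile normalization and -0.84 with normexp, so that it was not a member under these settings. Ccl5, a chemokine for T cells and eosinophils, had 1.79 in resting control cells, -0.57 in resting SH-2251-treated cells, 2.95 in restimulated control cells and 1.23 in restimulated SH-2251-treated cells, with more of the control signal left after restimulation (30.4%) than before (19.4%). Cd93, a C-type lectin-like receptor, had 1.02 and -1.87 before and 0.27 and -2.10 after restimulation. Ctla4, the inhibitory receptor for CD80 and CD86, had 0.42 and -0.91 before and 2.28 and 1.16 after restimulation. Treated cells expressed less of each of these genes in both states, and Ctla4 was higher after restimulation in both cultures. Izumo1r, a folate receptor relative found on regulatory and anergic T cells, had -0.23 and -1.998 before and 0.73 and -1.16 after restimulation. Its neighbour Gpr83 is a member too.

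Lair1, an inhibitory collagen receptor, had 0.62 and -0.68 before and -0.95 and -2.26 after restimulation, and P2rx7, an ATP-gated channel, had 3.26 and 1.98 before and 1.495 and 0.47 after restimulation. Both were lower after restimulation in either culture. Il20ra, a receptor chain for IL-20 family cytokines, had -1.83 and -3.85 before and -2.61 and -4.17 after restimulation, and Fcgr3, an Fc receptor for IgG, had -2.20 and -3.64 before and -2.999 and -4.11 after restimulation. Both stayed below the upper quartile of the array throughout. Csf2rb, the shared signalling chain of the receptors for IL-3, IL-5 and GM-CSF, had -1.88 and -3.15 before and -2.42 and -3.93 after restimulation. Its second probe, measured on all 4 arrays too, gave -0.18 and 0.020, so that its decrease rested on 1 probe. C3, the central complement component, had differences of -1.15 in resting and -1.20 in restimulated cells, Gpnmb, a membrane glycoprotein, -1.54 in resting and -1.14 in restimulated cells, and Vpreb3, known from B cell precursors, -1.51 in resting and -1.06 in restimulated cells.

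By lists of genes, 3 of 61 measured costimulatory, inhibitory and other lymphocyte surface genes were members (Cd93, Ctla4 and Fcgr3), with list medians of -0.027 and 0.14, and 2 were at least doubled with SH-2251 in both states. Of 33 measured cytokines and growth factors, Il10 was a member and Il5 and Tgfb3 were past the threshold but left out by name, and none was doubled in both states. In a list of 51 measured cytokine and growth factor receptors, Csf2rb was the only member, and 1 gene was doubled. Il1rl1 of this list was past the threshold but left out by name, and the member Il20ra is not on the list. Ccl5 was the only member among 5 measured chemokines, of which none was doubled. None of the listed 38 apoptosis and survival genes, 60 cell cycle genes or 26 TNF superfamily genes was a member. Nor was any of 35 listed feedback inhibitors of kinase, calcineurin and cytokine signalling. Of these genes, 1 of the cell cycle list and none of the others was doubled in both states. Bcl2l15 and Bcl2l14, grouped as relatives of apoptosis genes, are members outside these lists. In resting and restimulated cells their differences were -1.64 and -1.50 for Bcl2l15 and -1.63 and -1.14 for Bcl2l14. Of the remaining lists, members were Tuba8 and Tubb6 among 70 measured genes of cytoskeleton and motility, of which 4 were doubled, Adam19 and Gzma among 32 of cytotoxic granules and proteases and Ramp1 among 37 of quiescence and egress, and no gene of the last 2 lists was doubled.

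Genes of transcription and chromatin were 9. Zbtb32, a zinc finger repressor known to act on GATA3, had a log2 signal of 1.28 in resting control cells, -0.996 in resting SH-2251-treated cells, 4.47 in restimulated control cells and 2.68 in restimulated SH-2251-treated cells. It was strongly higher after restimulation in both cultures, and the treated cells had 20.7% of the control signal in resting and 28.9% in restimulated cells. Maf, a factor that drives Il4 and Il10 transcription, had 3.60 and 2.43 before and 4.56 and 3.34 after restimulation, and its second probe gave differences of -1.15 and -1.43. H1f8, a linker histone known from oocytes, had -0.84 and -2.89 before and 0.58 and -1.56 after restimulation. Eya2, a transcriptional coactivator with phosphatase activity, had 0.011 and -1.05 before and -1.03 and -2.85 after restimulation, with the deeper decrease after restimulation. Tle6, a corepressor relative, and Phf11a had differences of -1.22 in resting and -1.02 in restimulated cells and -1.14 in resting and -1.17 in restimulated cells. The core histone genes H2bc12 and H2bc14 lay near the threshold, with -1.01 in resting and -1.07 in restimulated cells and -1.05 in resting and -1.02 in restimulated cells. Maf and Zbtb32 were the members among 109 measured lymphocyte transcription factors, while Gfi1, Hic1 and Pparg were past the threshold and left out by name, and 3 of these factors were doubled in both states. Gata3 differed by -0.17 and -0.032.

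Lipid metabolism contributed 8 members, none of which moved 2-fold with restimulation. Dgat1, which catalyses the last step of triglyceride synthesis, had a log2 signal of 3.97 in resting control cells, 1.39 in resting SH-2251-treated cells, 4.04 in restimulated control cells and 1.82 in restimulated SH-2251-treated cells. Its signal was nearly the same in both states, and 16.7% of the control signal in resting and 21.4% in restimulated cells was left, with -2.54 and -2.26 at a second probe. Plin2, which coats lipid droplets, had 3.83 in resting control cells, 2.07 in resting SH-2251-treated cells, 3.85 in restimulated control cells and 1.46 in restimulated SH-2251-treated cells. Its control signal was also flat across the states, and its decrease was deeper after restimulation. Hilpda, another lipid droplet protein, had 4.14 and 3.06 before and 4.53 and 3.15 after restimulation. Angptl4, a secreted inhibitor of lipoprotein lipase, had 3.60 and 2.29 before and 2.84 and 1.70 after restimulation. Alox8, a lipoxygenase, had -1.33 and -2.67 before and -1.25 and -2.75 after restimulation. Akr1c18, which inactivates progesterone, had 4.84 and 3.56 before and 5.73 and 3.89 after restimulation, and Hsd17b7, an enzyme of cholesterol synthesis, had differences of -1.44 in resting and -1.24 in restimulated cells. In a list of 52 measured PPAR-gamma targets and lipid handling genes, 4 were members (Alox8, Angptl4, Dgat1 and Plin2), 1 was at least 2-fold higher in both states, and the medians were -0.15 and -0.15.

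Membrane transporters were 5. Slc6a19 and Slc7a8, which carry neutral amino acids, had log2 signals of -1.06 and -3.56 before and -0.56 and -3.36 after restimulation for Slc6a19 and 0.32 and -1.95 before and -0.29 and -3.01 after restimulation for Slc7a8. Treated cells were far below control cells of the same state, with 17.6% of the control signal in resting and 14.4% in restimulated cells left for the first gene. Slc2a3, the glucose transporter GLUT3, had 5.65 and 4.61 before and 4.63 and 3.60 after restimulation, close to the 2-fold threshold. Slc35d3 had differences of -1.56 in resting and -1.13 in restimulated cells and Aqp11, a water channel, -1.28 in resting and -1.73 in restimulated cells. With P2rx7, Slc6a19, Slc7a8 and Slc2a3 were the members in a list of 57 measured ion channels and solute carriers, which does not hold Slc35d3 or Aqp11. No gene of the list was doubled in both states, and its medians were 0.058 and 0.056.

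Other enzymes of metabolism and redox were 11. Osgin1, an oxidative stress-induced growth inhibitor, had a log2 signal of 1.06 in resting control cells, -1.79 in resting SH-2251-treated cells, 0.57 in restimulated control cells and -2.19 in restimulated SH-2251-treated cells. Both treated cultures lay below both controls, and a second probe gave differences of -2.62 and -2.26. Gpx8, a glutathione peroxidase of the endoplasmic reticulum, had -1.08 and -4.004 before and -0.66 and -2.83 after restimulation, and Moxd1, a monooxygenase relative, had 0.37 and -1.98 before and 0.74 and -1.02 after restimulation. Ddc, the aromatic amino acid decarboxylase, had differences of -1.78 in resting and -2.06 in restimulated cells, and Ckb, the brain type creatine kinase, -1.40 in resting and -1.48 in restimulated cells with -1.40 and -1.43 at a second probe. Gatm, which makes the precursor of creatine, had -1.38 in resting and -1.41 in restimulated cells.

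Genes of signalling and vesicle traffic were the largest group, with 20 members and medians of -1.66 and -1.30. Grtp1, a TBC domain protein, had a log2 signal of 0.19 in resting control cells, -2.74 in resting SH-2251-treated cells, -1.80 in restimulated control cells and -4.54 in restimulated SH-2251-treated cells, lower both with SH-2251 and after restimulation. With normexp its differences were -1.96 and -1.20. Nrgn, neurogranin, which binds calmodulin, had -0.44 and -2.67 before and -0.27 and -2.67 after restimulation, and Gimap7, a GTPase of lymphocytes, 0.65 and -1.51 before and -0.044 and -2.14 after restimulation. These genes kept about the same difference in both states. Rab20, a small GTPase of endosomes and phagosomes, had -0.79 and -2.94 before and 0.98 and -0.34 after restimulation, and Gem, a GTPase that inhibits calcium channels, -0.84 and -2.32 before and 1.66 and 0.40 after restimulation. Both were higher after restimulation in either culture. Camkk1, a kinase that activates calmodulin-dependent kinases, had 2.69 and 1.05 before and 0.81 and -0.25 after restimulation, and was lower after restimulation. None of 83 measured genes in a list of G protein, small GTPase and second messenger signalling was a member, and 1 was doubled in both states. The GTPase members Rab20, Gem and Gimap7 are not on this list.

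Of 14 genes of matrix, adhesion and guidance, Kremen2 is described above. Adam19, a membrane metalloprotease, had 0.0065 and -1.71 before and -0.38 and -2.29 after restimulation, and a further probe gave differences of -2.02 and -1.90. Chst2, a sulfotransferase, had -3.10 and -4.30 before and -1.96 and -4.32 after restimulation. It was higher after restimulation in control cells and at the same low level in both treated cultures. Loxl2, which crosslinks collagen, had differences of -1.53 in resting and -1.57 in restimulated cells, and Emilin2, a matrix glycoprotein, -1.11 in resting and -1.16 in restimulated cells with -1.21 and -1.34 at a second probe. In a list of 36 measured integrins and adhesion molecules, only Itga4, which was left out by name, was past the threshold. Of these 36 listed genes, 4 were at least doubled with SH-2251 in both states.

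Genes known from specialised cells included Gzma, a granule protease of cytotoxic lymphocytes, with 6.01 in resting control cells, 4.23 in resting SH-2251-treated cells, 6.57 in restimulated control cells and 4.85 in restimulated SH-2251-treated cells. The decrease was alike in both states (-1.78 in resting and -1.72 in restimulated cells). The other markers of CD8 T and NK cells went in both directions: Cd8a was higher with SH-2251, by 1.45 in resting and 0.97 in restimulated cells, Prf1 differed by -0.86 and -0.29, Klrd1 by 0.056 and 0.60, Eomes was above background on both SH-2251 arrays and on neither control array, and Klrb1c and Ncr1 on none. The summed level of these 7 markers, which include Gzma, was 6.03 and 4.29 in the resting pair and 6.58 and 4.90 in the restimulated pair. Nearly all of it was the signal of Gzma itself, so this sum gives no level for the other markers. The part of such cells in the decrease of Gzma was not tested. Tg, thyroglobulin, had 3.88 in resting control cells, 1.30 in resting SH-2251-treated cells, 4.41 in restimulated control cells and 3.23 in restimulated SH-2251-treated cells, and a second probe gave differences of -2.62 and -1.19. Hbb-bt, a beta globin whose sequence is shared with near-identical globin genes, had differences of -1.53 in resting and -1.56 in restimulated cells. The alpha globin Hba-a1 was higher with SH-2251, by 1.15 and 1.28. Of 3 red cell markers on the arrays only Hba-a1 was above background on all, and their summed level lay between -2.10 and -0.49. Tuba8 and Tubb6, both tubulins, had differences of -1.75 in resting and -1.80 in restimulated cells (Tuba8) and -1.66 in resting and -1.02 in restimulated cells (Tubb6).

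The members Usp18, Dhx58 and Rtp4 belong to the interferon response but to none of the families left out. Usp18, the protease that removes ISG15, had -0.49 and -2.60 before and -0.41 and -2.95 after restimulation. Dhx58, the RNA sensor LGP2, had 1.49 and 0.35 before and -0.25 and -1.44 after restimulation, and was lower after restimulation in both cultures. Rtp4 had -1.21 and -2.73 before and -0.69 and -1.74 after restimulation. Of 48 measured interferon-stimulated genes outside those families, 3 were members and 3 were at least doubled with SH-2251 in both states, with medians of -0.20 and -0.14.

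**Figure D4:**
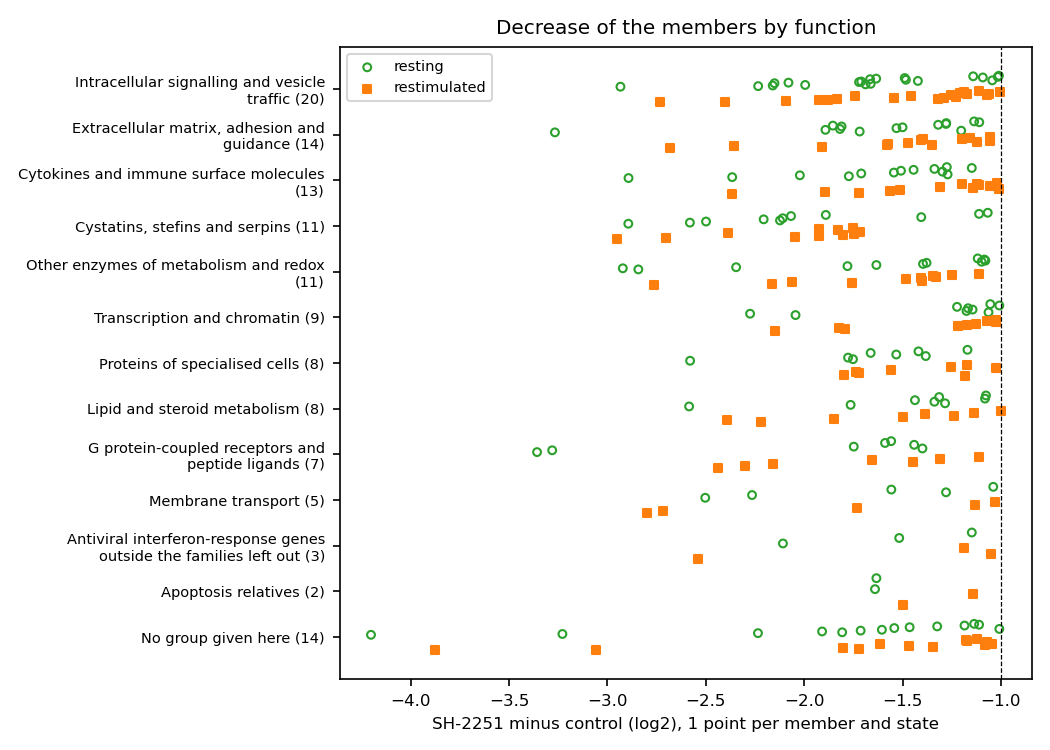
Log2 difference between SH-2251-treated and control cells (x axis) of each member in resting cells (green circles) and in restimulated cells (orange squares), by group of function (y axis, with the number of members). The dashed line at -1 is the threshold of the selection, and the cystatins, stefins and serpins lie between -2.95 and -1.07.

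Responses of at least 2-fold to restimulation for 4 h went in both directions among the members. In control cells 30 members (24%) were at least 2-fold higher after restimulation, compared with 6.51% of all genes, and 22 (17.6%) were at least 2-fold lower, compared with 6.94%. In SH-2251-treated cells 29 members (23.2%) were higher, compared with 6.61%, and 17 (13.6%) were lower, compared with 6.56%. The median response of the members was 0.029 in control and -0.076 in treated cells. At 3-fold, 20 members were higher and 4 lower in control cells, and 21 higher and 4 lower in treated cells. Shares of all genes at 3-fold are not given here, so these counts do not set the members apart. Since the same arrays entered the selection, the shares at 2-fold and the counts at 3-fold are a description.

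Most responses were of similar size in both cultures. A response at least 2-fold higher was seen in both cultures for 25 members and a response at least 2-fold lower for 14, and none was 2-fold higher in one culture and 2-fold lower in the other. For 96 members the responses of the 2 cultures differed by less than 0.5 on the log2 scale. Shares of all genes for these counts are not given here. Similar responses were not particular to the members: of all genes, only 0.768% had a response at least 2-fold higher and 0.489% one at least 2-fold lower in treated cells. The difference between the responses equals the difference between the decreases in the 2 states, so it comes from the values that chose the members.

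Of the 11 cystatins, stefins and serpins, 9 were at least 2-fold higher after restimulation in control and 8 in treated cells, and none was 2-fold lower. Among the 5 members with the largest responses in control cells were Stfa2 (3.58), Stfa2l1 (3.47), Zbtb32 (3.19) and Gem (2.49). In treated cells these genes had 3.53, 3.34, 3.67 and 2.72. In each of them the signal was higher after restimulation in either culture, and lower with SH-2251 in either state. The lowest responses in control cells were those of Grtp1 (-1.996), Camkk1 (-1.88), P2rx7 (-1.76), Dhx58 (-1.75) and Lair1 (-1.57), and these genes had -1.79, -1.30, -1.51, -1.79 and -1.58 in treated cells. Of the 14 genes of matrix, adhesion and guidance, 2 were at least 2-fold higher and 5 at least 2-fold lower in control cells.

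Of the 30 members that were at least 2-fold higher after restimulation of control cells, 19 reached or passed the level of resting control cells when treated cells were restimulated. Among them were Il10, at 5.31 compared with 4.12, Zbtb32, at 2.68 compared with 1.28, and Ctla4, at 1.16 compared with 0.42. Chst2 did not, at -4.32 compared with -3.10. The selection made every member at least 2-fold lower with SH-2251 after restimulation, so no member outside these 30 could reach that level. The count is a description.

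**Figure D5:**
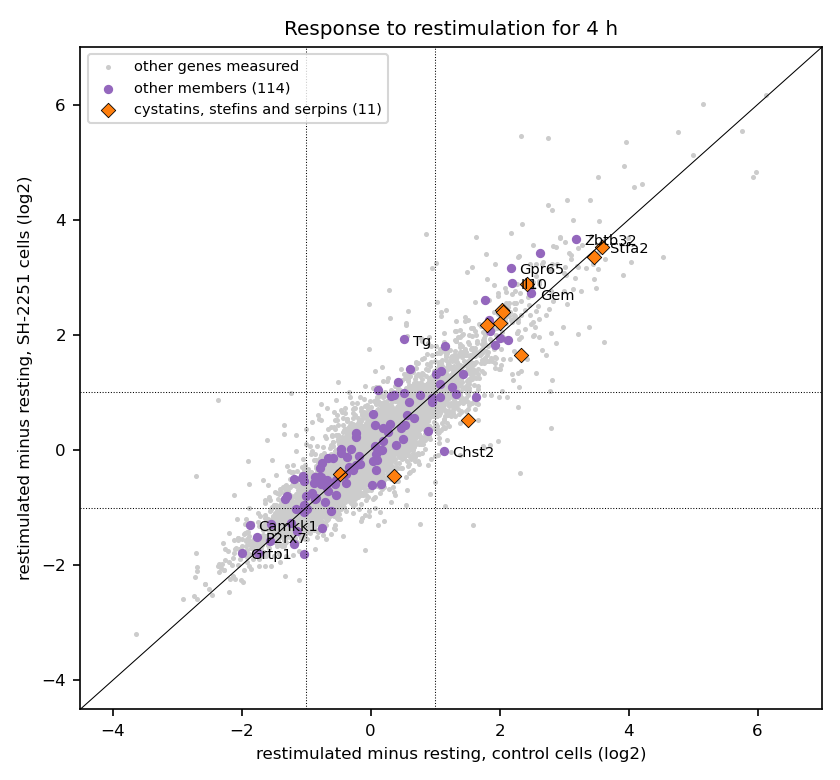
Log2 difference between restimulated and resting cells in control (x axis) and in SH-2251-treated cultures (y axis), for cystatins, stefins and serpins (orange diamonds), the other members (purple) and the other genes measured (grey, of which 6 lie outside the axes). Dotted lines mark 2-fold and the solid line equal responses, near which most members lie, with Tg above it and Chst2 below it.

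The response differed at least 2-fold between the cultures in 2 members. It was higher with SH-2251 in Tg, with 0.52 in control cells and 1.92 in treated cells, and lower in Chst2, with 1.14 in control cells and -0.012 in treated cells. With normexp the responses of Chst2 were 0.55 and 0.14, a difference under 2-fold. Of all genes, 0.768% had a response at least 2-fold higher and 0.489% one at least 2-fold lower in treated cells. The next largest differences upwards were those of Gpr65 (2.18 in control cells and 3.16 in treated cells), Ffar2 (0.12 in control cells and 1.04 in treated cells) and Rab20 (1.77 in control cells and 2.60 in treated cells). Among the largest downwards were those of Cst6 (0.37 in control cells and -0.45 in treated cells), Gpr34 (0.17 in control cells and -0.59 in treated cells) and Eya2 (-1.04 in control cells and -1.80 in treated cells). Chst2 lay below the upper quartile of every array, and the technical SD of its decreases was 0.360 and 0.335.

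Members lay next to each other in the order of protein-coding genes at 9 places, 3 of them within the stefin A run. How often other genes of a set of this size lie next to each other was not examined, so these places are a description. The other pairs were Il20ra and Slc35d3, Gpx8 and Gzma, Paqr4 and Kremen2, Tuba8 and Usp18, Sh3gl3 and Adamtsl3, and Gpr83 and Izumo1r. In the last pair, treated cells kept between 26.9% (Izumo1r, restimulated) and 36.8% (Gpr83, resting) of the control signal. Chromosome 17 held the most members, 13 of 578 genes measured on it (2.25%), and chromosome 16 held 8 of 353 (2.27%). Over all genes measured, 1.17% were past the threshold before the named genes were left out. The members on chromosome 16 include the 7 stefin A genes, and whether their probes share targets was not examined. These counts are a description too.

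Several members had more than 1 RefSeq probe. Of 26 such further probes well above background on all arrays, which belonged to 24 members, 25 gave a lower signal with SH-2251 in both states and 15 a signal at least 2-fold lower in both. The probe of Csf2rb was the exception. The weaker second probes included those of Bcl2l14 (-0.79 and -0.43), Sdc3 (-0.94 and -0.46) and 1 of 3 of Hbb-bt (-0.66 and -0.70).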

How the data were processed

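RNA of 4 conditions was measured on 1 single-dye (Cy3) Agilent whole mouse genome array each, all on 1 slide and read in 1 scan. The authors deposited scanner intensities, written by Feature Extraction 10.7.3.1 per the file headers and already corrected for background and spatial trend. They also deposited log2 values normalized with the Subio Platform, which equal the log2 of the intensities shifted so that the 75th percentile of an array is 0 (at least 99.6% of the 41174 probes lay within 0.01 of a constant shift). The log2 values were used here. No spot was saturated, and 56.0% to 56.6% of probes were well above background. Probes were named through RefSeq accessions in a table for GRCm38.p6, which matched 26630 of 27006 RefSeq probes, and 1 member has no match and is not named. The arrays were designed on another build (mm9), so the table served for names and gene order only.

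A gene was represented by its RefSeq probe with the highest mean signal. Differences are SH-2251 minus control within a state, and restimulated minus resting within a culture. The filter on all 4 arrays left out genes that fell to background with SH-2251. The members and the gene lists were chosen with earlier results of these data known, and groups of function were assigned by hand afterwards from general knowledge. Genes named are the 25 with the largest mean decrease, the 5 at each end of the response in control cells and of the difference between the responses, the members of the 19 lists, and the 3 on each side of the threshold. Some genes that meet this rule are not reported here. Other members named were chosen after their values were seen. Other scalings, background corrections, filters, probes and thresholds were tried. Tools were limma 3.58.1 in R 4.3.3 (for normexp), pandas 2.3.3, numpy 2.4.6 and matplotlib 3.10.9 in Python 3.11.15.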

Additional observations from a re-analysis of the deposited data

How the results depend on the processing

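The 125 members became 124 with scanner intensities, 125 with median centring, 116 with quantile normalization and 120 with the mean of all probes. Background correction by normexp gave 64 genes, and 68 when uneven spots were left out, all of them members, and every member was still lower in both states. The offset of 50 in this correction draws dim probes together. A threshold of 1.5-fold gave 367 genes and one of 3-fold 38. Without a filter on dim probes 283 genes passed, with the filter on the control arrays only 186, without probes marked as outliers 125, and counting each probe 151. Members at least 2-fold lower in restimulated than in resting treated cells, 17 before, were 11 under either form of normexp. At 1.5-fold, 41 members were lower and 37 higher after restimulation in control cells and 33 lower and 41 higher in treated cells. At 3-fold, 4 were lower and 20 higher in control and 4 lower and 21 higher in treated cells. Shares of all genes at 1.5-fold and 3-fold are not given here. Members whose response differed 2-fold between the cultures were 4, not 2, with quantile normalization. Other counts stayed within 1.5 times. For the 53 genes named by rule, 1054 of 1272 recomputed differences moved by less than their technical SD, 213 of the 218 others under normexp, and none of 2-fold or more changed sign. No paired analysis was possible because each condition has 1 array, and for the same reason no replicate could be left out. Signal over background limits the dim members, whose technical SD reached 0.383.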
